A study of Homo sapiens with 9 samples.

Results

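The collagen genes are the human protein-coding genes that encode the alpha chains of the collagens. Of the 58395 gene identifiers counted in each library, 44 mapped to a protein-coding gene whose symbol is COL followed by a number, the letter A and a number, and these 44 are described here. By textbook class, 11 encode fibrillar chains, 6 encode the type IV chains of basement membranes and 27 encode the remaining types. RNA was sequenced from MDA-MB-231, an established human cell line from a triple-negative breast cancer, written MDAMB231 in the labels. There were 3 libraries of cells given a first siRNA against SKP2 (named SKP2 siRNA_1 and here SKP2-1), 3 of cells given a second siRNA against SKP2 (SKP2 siRNA_2, here SKP2-2), and 3 of cells given a nontargeting control siRNA (NC). Every group was harvested 96 h after reverse transfection and is from the same line, with no stable genetic change named in the labels. SKP2, an F-box protein of a ubiquitin ligase, is the target in the title and labels; the design text speaks of ZIP7 instead, the zinc transporter encoded by SLC39A7. The labels do not say that the libraries of a group came from separate cultures, so p-values measure the spread between these libraries, which may be technical. The spread of a gene was estimated over all 9 libraries together, so a p-value between the siRNAs also draws on the spread within NC.

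Collagens are trimers of alpha chains wound into a triple helix. Fibrillar collagens (types I, II, III, V, XI, XXIV and XXVII) assemble into the fibres of interstitial matrix, whereas type IV chains form the sheet-like network of basement membranes, chiefly as trimers of the COL4A1 and COL4A2 chains. The remaining types attach to fibrils, form beaded filaments, hexagonal networks or anchoring fibrils, sit in the basement membrane zone, or span the plasma membrane. Carcinoma cells meet both kinds of matrix, since a basement membrane encloses the epithelium and fibrillar collagen fills the stroma beyond it.

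Gene counts ranged from 35476410 to 49855113 per library, and collagen genes took 0.197% to 0.284% of them. SKP2 was at 5.96 ± 0.236 CPM (SD, n = 3; CPM is the normalised counts-per-million-reads scale) with SKP2-2 and 3.58 ± 0.307 CPM with SKP2-1, against 62.1 ± 3.99 CPM in NC, while SLC39A7 was at 364 ± 10.3, 343 ± 1.07 and 342 ± 8.38 CPM in the same order. The first and second principal components separated the groups. On the third, which held 11.6% of the variance, NC replicate 1 (30.3) and SKP2-2 replicate 3 (14.6) lay apart from NC replicate 3 (-21.2) and SKP2-2 replicate 1 (-21.7). Those 4 libraries deviated from their group means in proportion to transcript GC content (Pearson correlations over 16555 genes of 0.51, 0.37, -0.49 and -0.40 in that order), whereas the SKP2-1 libraries did not (within 0.05 of 0). All 9 genes listed as marks of MDA-MB-231 were expressed, with summed levels of 9119 to 9281 CPM with SKP2-2, 8897 to 9139 CPM with SKP2-1 and 8019 to 8229 CPM in NC. Luminal and receptor markers summed to 685 to 854, 692 to 709 and 661 to 843 CPM in that order, most of it KRT8 and KRT18. Of these 9 markers 3 stayed under 1 CPM in every library. Of the 7 tested, none rose and 3 fell with SKP2-2, and 2 rose and 2 fell with SKP2-1. Of all genes tested, 25.2% rose and 24.1% fell with SKP2-2, and 25.0% rose and 20.5% fell with SKP2-1, against NC. Of the 11 fibroblast markers 6 stayed under 1 CPM in every library, and the summed level of the list, most of it S100A4, was 200 to 217 CPM with SKP2-2, 221 to 248 CPM with SKP2-1 and 167 to 198 CPM in NC. Endothelial markers summed to 269 to 295, 218 to 226 and 176 to 214 CPM in that order, most of it ESAM and ROBO4. Immune markers summed to 175 to 201, 216 to 232 and 156 to 205 CPM, most of it CD74 (means of 187, 219 and 178 CPM). Of 10 endothelial markers 5 stayed under 1 CPM in every library, as did 6 of 10 immune markers. Of 5 tested genes in each of the fibroblast, endothelial and immune lists, 2, 3 and 3 rose with SKP2-2, and 4, 4 and 5 rose with SKP2-1, where 25.2% and 25.0% of all genes tested rose in those comparisons. The part of these markers in the collagen results was not tested. In bulk RNA, fewer cells of a kind and less RNA per cell cannot be told apart.

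After division by exon length, most of the collagen signal in MDA-MB-231 cells came from a few genes, and these came from several classes. The length used is that of all annotated exons of a gene merged, which can exceed the length of any 1 transcript. Ranks and ratios between genes, here and below, depend on that choice, while comparisons of 1 gene between groups do not. COL13A1, a transmembrane collagen of cell adhesions, had the highest level in each group, with a mean of 50.8 CPM per kb of exon with SKP2-2, 51.4 with SKP2-1 and 37.2 in NC. The 8 highest collagens were the same in the 3 groups and held 88.3% of the collagen CPM per kb with SKP2-2, 86.8% with SKP2-1 and 86.6% in NC. They were COL13A1, the fibrillar COL5A1, the type IV COL4A1 and COL4A2, the fibril-associated COL12A1, the anchoring fibril chain COL7A1, the network chain COL8A1 and the beaded filament chain COL6A1. Their order differed between groups. COL12A1 was the second highest with SKP2-1 (28.2 CPM per kb) and only the eighth with SKP2-2 (16.8), against the third place in NC (23.3). COL7A1 held the third place with SKP2-2 (35.0), the sixth with SKP2-1 (21.6) and the fifth in NC (21.8). In NC, the places between the second and the seventh were close together, from 29.3 CPM per kb for COL5A1 to 18.0 for COL8A1, and COL5A1, COL4A2 and COL7A1 varied among the 3 NC libraries by more than the gaps between them. The chains of classical stroma were scarce: COL1A1 reached 0.895 CPM per kb with SKP2-2, 1.63 with SKP2-1 and 2.40 in NC, and COL3A1 had at most 14 counts in a library.

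**Figure D1:**
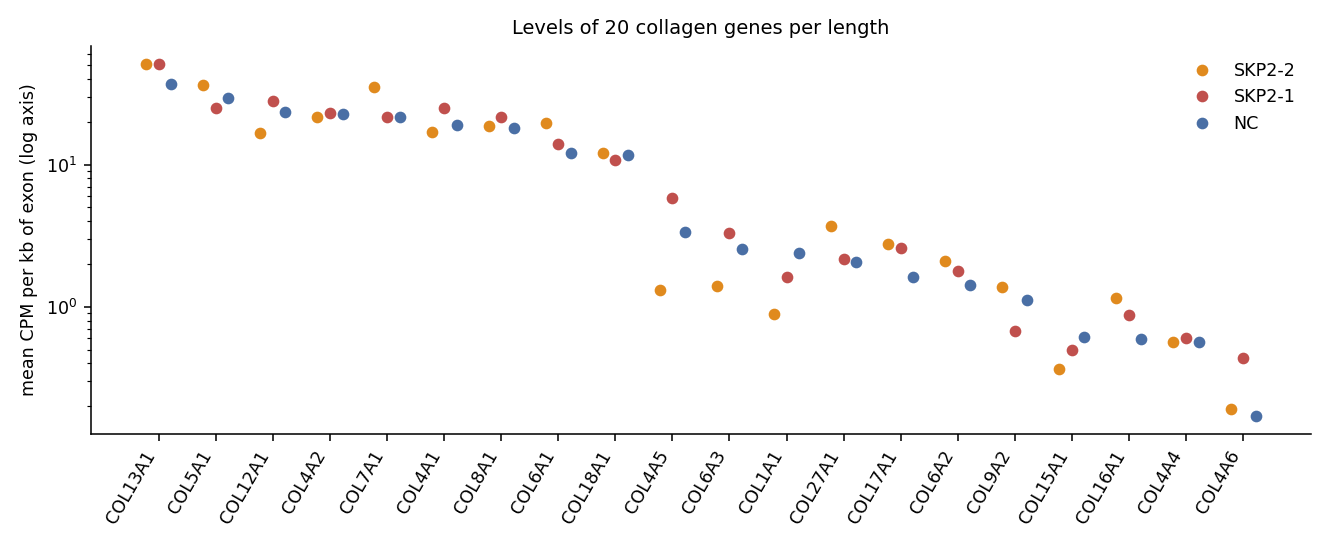
Mean level of the 20 collagen genes that reached 2 CPM in a group, in CPM per kb of exon on a log axis, with 1 point per group and genes in descending order of their NC level. COL13A1 lies highest in each group (50.8 with SKP2-2, 51.4 with SKP2-1, 37.2 in NC), and COL4A5 has its SKP2-2 point at 1.32, its SKP2-1 point at 5.80 and its NC point at 3.34.

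A gene was tested where its counts passed a filter on low values, and 29 of the 44 collagen genes did: 7 of 11 fibrillar, 6 of 6 type IV and 16 of 27 of the remaining types. With SKP2-2 against NC, 9 collagen genes rose and 6 fell, where 49.4% of the 16575 genes tested over the whole table passed in that comparison, 25.2% higher and 24.1% lower. With SKP2-1 against NC, 12 rose and 1 fell, where 45.5% of all genes tested passed, 25.0% higher and 20.5% lower; a fit to those 6 libraries alone split all genes passed as 3341 higher and 4255 lower, where the 9 libraries gave 4150 higher and 3398 lower, and left the collagen counts as they were. With SKP2-2 against SKP2-1, 4 were higher and 11 lower, where 50.5% of all genes tested passed, 25.2% higher and 25.3% lower. The share of tested collagens that passed was 51.7%, 44.8% and 51.7% in that order, near the share of all genes. The median log2 fold change of the 29 was 0.16 with SKP2-2 and 0.26 with SKP2-1, against a median of 0.03 and 0.02 over all genes tested. The library values of the groups did not overlap for 17 of the 29 with SKP2-2 against NC (53.6% of all genes tested), 16 with SKP2-1 against NC (54.8%) and 20 with SKP2-2 against SKP2-1 (64%). Both siRNAs were compared with the same NC libraries, so their fold changes against NC share the error of those libraries.

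**Figure D2:**
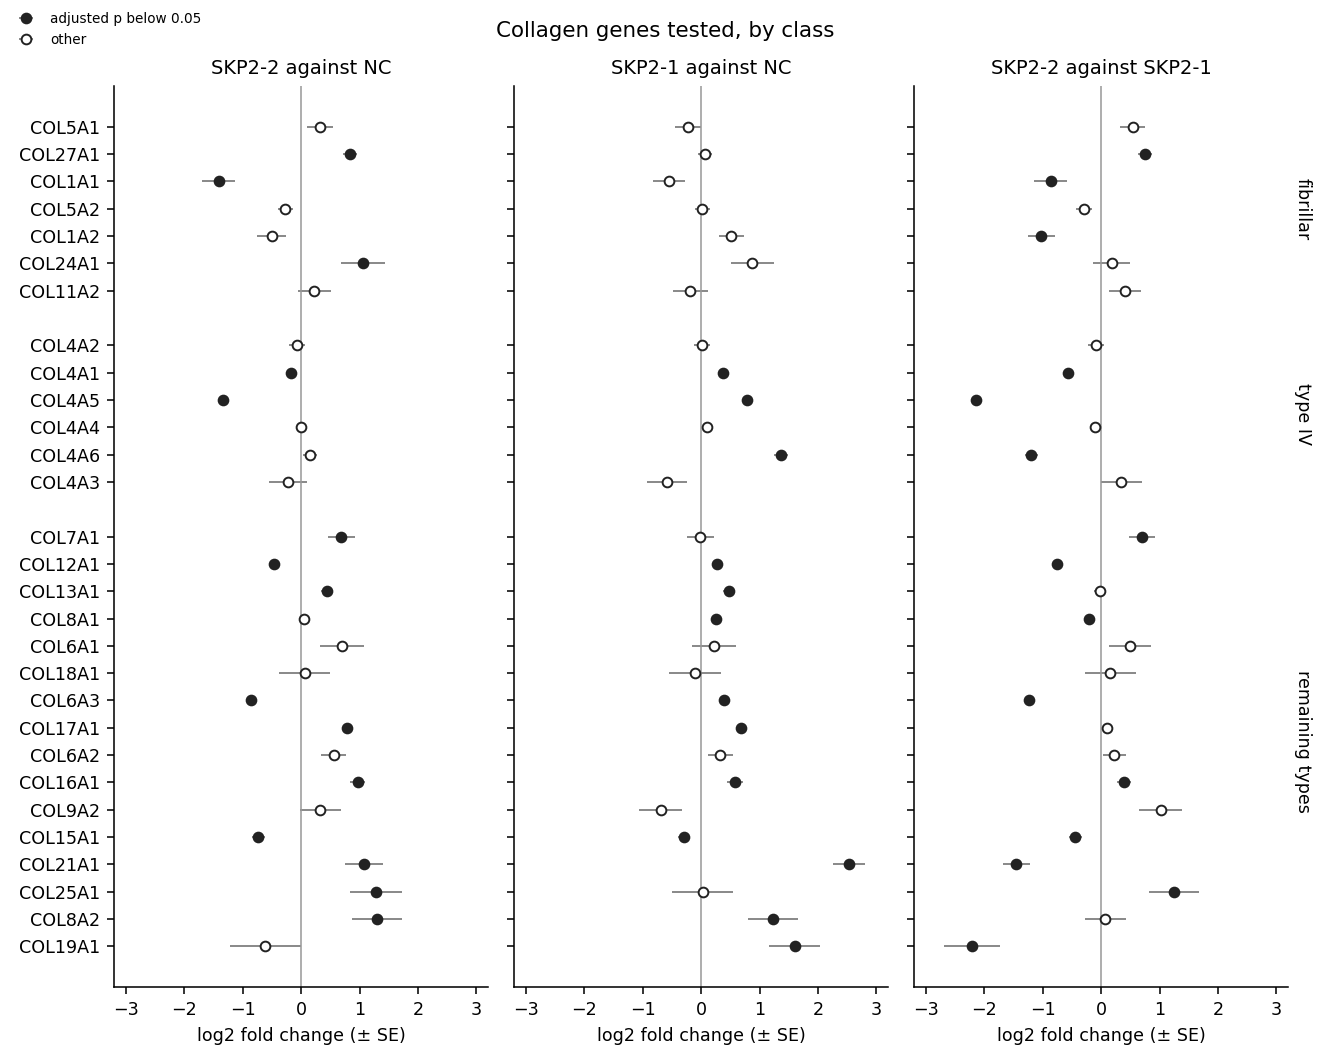
Log2 fold change with its standard error (edgeR) of the 29 collagen genes tested, one panel per comparison, grouped by class and ordered by level within a class. Filled points passed an adjusted p of 0.05. COL4A5, COL12A1 and COL6A3 lie left of 0 with SKP2-2 against NC (-1.34, -0.47, -0.85) and right of 0 with SKP2-1 against NC (0.79, 0.28, 0.39).

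Of 6 type IV chains tested, 2 fell and none rose with SKP2-2 (median log2 fold change -0.12), whereas 3 rose and none fell with SKP2-1 (median 0.24). With SKP2-2 against SKP2-1, 3 were lower and none higher (median -0.33). Over all genes tested, 25.2% rose and 24.1% fell with SKP2-2, and 25.0% rose and 20.5% fell with SKP2-1, against NC. Between the siRNAs 25.2% were higher and 25.3% lower. The share of type IV chains that passed against NC was 33.3% with SKP2-2 and 50% with SKP2-1, beside 49.4% and 45.5% of all genes. COL4A5 (ENSG00000188153, chrX:108439844-108697545, plus strand), a chain of the minor type IV networks of kidney and smooth muscle, had the largest difference between the siRNAs among collagens at 2 CPM or more. Its level was 15.9, 15.9 and 15.2 CPM with SKP2-2, 67.5, 70.2 and 68.8 CPM with SKP2-1, and 36.6, 40.4 and 41.9 CPM in NC. The 3 groups did not overlap, with every NC library lying between those of the siRNAs. COL4A5 thus fell 2.53-fold with SKP2-2 (log2 fold change -1.34, SE 0.06, adjusted p = 1.25e-09) and rose 1.73-fold with SKP2-1 (0.79, SE 0.06, adjusted p = 1.13e-07). The siRNAs differed 4.39-fold (-2.13, SE 0.06, adjusted p = 2.76e-11).

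COL4A1 (ENSG00000187498, chr13:110148963-110307233, minus strand), the chain present in duplicate in the common type IV trimer, moved the same way by less. It was at 241, 259 and 248 CPM with SKP2-2, 370, 373 and 362 CPM with SKP2-1, and 290, 279 and 277 CPM in NC. The groups did not overlap. COL4A1 fell 1.13-fold with SKP2-2 (-0.18, SE 0.04, adjusted p = 0.00358), rose 1.31-fold with SKP2-1 (0.38, SE 0.04, adjusted p = 8.11e-06) and was 1.48-fold lower with SKP2-2 than with SKP2-1 (-0.56, SE 0.04, adjusted p = 1.82e-07).

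COL4A2 (ENSG00000134871, chr13:110305812-110513209, plus strand) encodes the partner chain of COL4A1 and lies head to head with it. Its level was 362, 438 and 460 CPM with SKP2-2, 444, 462 and 437 CPM with SKP2-1, and 525, 435 and 364 CPM in NC, and all groups overlapped. It did not pass with SKP2-2 (-0.07, SE 0.14, adjusted p = 0.716) or SKP2-1 (0.02, SE 0.14, adjusted p = 0.92). With offsets for GC content it passed as lower with SKP2-2 against NC (-0.28, adjusted p = 2.17e-05) and against SKP2-1 (-0.30, adjusted p = 9.18e-06). The RNA level of COL4A1 per that of COL4A2, each per kb, was 0.871, 0.773 and 0.706 with SKP2-2, 1.09, 1.06 and 1.08 with SKP2-1, and 0.725, 0.838 and 0.997 in NC. The SKP2-1 ratios lay above all others, and those of SKP2-2 fell within the NC range apart from replicate 3. The start sites of this pair are 126 bases apart on chromosome 13, and the sequence between them is shown because both genes are transcribed outward from it (RefSeq, GRCh38.p14, chr13:110307158-110307283, plus strand). Capitals mark a CCAAT box (CCAAT) and a GC box (GGGCGG), which do not overlap, and the stretch is 80.2% G and C.
COL4A1-COL4A2: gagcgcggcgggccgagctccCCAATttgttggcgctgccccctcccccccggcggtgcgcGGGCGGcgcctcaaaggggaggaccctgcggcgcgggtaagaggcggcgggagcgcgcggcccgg

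COL4A6, which lies head to head with COL4A5 on chromosome X and encodes a further minor chain, rose with SKP2-1. Its level was 1.70, 1.79 and 1.84 CPM with SKP2-2, 4.36, 4.13 and 3.73 CPM with SKP2-1, and 1.46, 1.61 and 1.67 CPM in NC. The SKP2-1 libraries lay above all others. COL4A6 was 2.56-fold higher with SKP2-1 than in NC (1.36, SE 0.12, adjusted p = 6.69e-07), and it was 2.28-fold lower with SKP2-2 than with SKP2-1 (-1.19, SE 0.11, adjusted p = 1.54e-06). With SKP2-2 against NC it did not pass (0.16, SE 0.12, adjusted p = 0.336). COL4A5 RNA exceeded COL4A6 RNA, per kb, by 6.44 to 7.31 times with SKP2-2, 12.1 to 14.4 times with SKP2-1 and 19.6 times in each NC library. Between their start sites lie 379 or 1415 bases, depending on which COL4A6 start site RefSeq lists. The remaining head-to-head pair, COL4A3 and COL4A4, stayed low: COL4A4 was at 5.69 ± 0.141 CPM with SKP2-2, 6.09 ± 0.190 CPM with SKP2-1 and 5.69 ± 0.139 CPM in NC (SD, n = 3; adjusted p = 0.999 and 0.328 against NC for SKP2-2 and SKP2-1), and COL4A3 had between 6 and 15 counts per library and passed in no comparison.

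**Figure D3:**
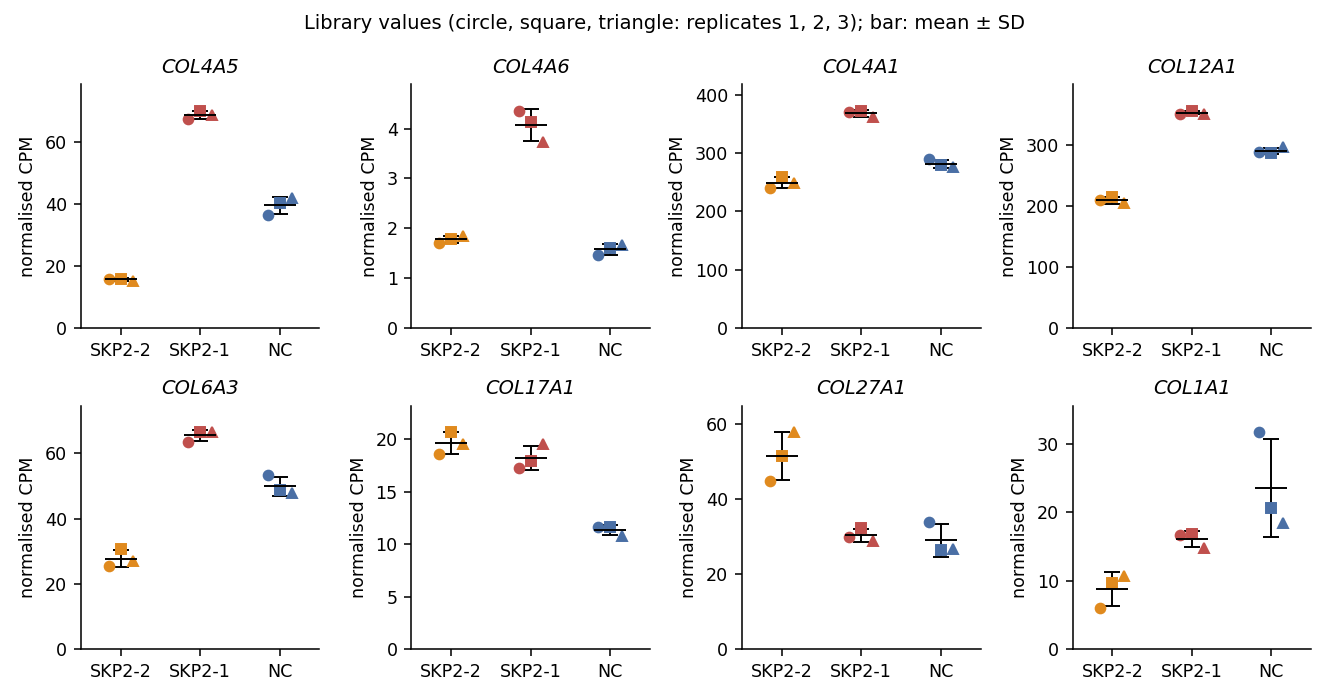
Normalised CPM in each of the 9 libraries for 8 collagen genes, with circles, squares and triangles for replicates 1, 2 and 3 and bars for the mean and SD of each group. COL4A5, COL4A1, COL12A1 and COL6A3 have SKP2-2 lowest, NC between and SKP2-1 highest with no overlap, COL17A1 is higher with both siRNAs than in NC, and COL1A1 spans 18.4 to 31.7 CPM within NC.

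Of 7 fibrillar chains tested, 2 rose and 1 fell with SKP2-2 (median log2 fold change 0.23), and none passed with SKP2-1 (median 0.02). With SKP2-2 against SKP2-1 there were 1 higher and 2 lower (median 0.18). Beside these stand 25.2% of all genes tested higher and 24.1% lower with SKP2-2, and 25.0% and 20.5% with SKP2-1, against NC. Between the siRNAs the shares were 25.2% higher and 25.3% lower. With SKP2-1 against NC the count of 0 came from edgeR, DESeq2 also gave 0, and 2 of the 7 had an unadjusted p under 0.05, both higher. With offsets for GC content COL1A1 passed there (-0.54, adjusted p = 0.00643). COL1A1 (ENSG00000108821, chr17:50183289-50201632, minus strand), the major chain of type I collagen, was at 6.04, 9.61 and 10.7 CPM with SKP2-2, 16.6, 16.8 and 14.7 CPM with SKP2-1, and 31.7, 20.6 and 18.4 CPM in NC. The groups did not overlap, although the NC libraries differed among themselves by up to 1.72-fold. COL1A1 fell 2.67-fold with SKP2-2 (-1.41, SE 0.28, adjusted p = 0.00476), and the value of SKP2-1 against NC was -0.55 (SE 0.27, adjusted p = 0.143). It was 1.82-fold lower with SKP2-2 than with SKP2-1 (-0.86, SE 0.28, adjusted p = 0.0378), a call that was lost without any one of the SKP2-1 or of SKP2-2 replicates 1 and 2, and without NC replicate 2, with values from -0.93 to -0.66 and adjusted p from 0.0536 to 0.0967.

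COL27A1, a fibrillar chain known from cartilage, rose with SKP2-2. It was at 45.0, 51.6 and 58.0 CPM with SKP2-2, 29.9, 32.4 and 29 CPM with SKP2-1, and 34, 26.4 and 26.7 CPM in NC. The SKP2-2 libraries lay above all others, and those of SKP2-1 fell within the NC range. COL27A1 was 1.78-fold higher with SKP2-2 than in NC (0.83, SE 0.12, adjusted p = 0.000307) and 1.69-fold higher than with SKP2-1 (0.76, SE 0.12, adjusted p = 0.000527), with 0.07 for SKP2-1 against NC (adjusted p = 0.672). COL5A1, the most abundant fibrillar chain here and a regulator of fibril diameter, was at 334, 398 and 492 CPM with SKP2-2, 276, 283 and 283 CPM with SKP2-1, and 434, 288 and 261 CPM in NC. Both siRNA groups overlapped NC, and the values were 0.32 with SKP2-2 (SE 0.22, adjusted p = 0.29) and -0.22 with SKP2-1 (SE 0.22, adjusted p = 0.467). Without NC replicate 1, the highest NC library, COL5A1 passed as higher with SKP2-2 against NC (0.56, adjusted p = 0.0268) and against SKP2-1 (0.54, adjusted p = 0.0184), and the second also passed with GC offsets (0.38, adjusted p = 0.0208) and with the 6 SKP2-2 and SKP2-1 libraries alone (0.54, adjusted p = 0.0366).

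The other fibrillar chains tested were scarce, under 2 CPM in every library, with 65 to 88 counts per library for COL5A2 and 18 to 45 for COL1A2. COL1A2, the partner of COL1A1 in type I collagen, was at 0.444, 0.476 and 0.429 CPM with SKP2-2 and 0.708, 1.15 and 0.892 CPM with SKP2-1 (2.03-fold lower with SKP2-2, -1.02, SE 0.23, adjusted p = 0.00266), and at 0.759, 0.597 and 0.571 CPM in NC. The COL1A1 level exceeded that of COL1A2, per kb, by 15.5 to 28.4 times with SKP2-2, 16.5 to 26.7 times with SKP2-1 and 36.6 to 47.4 times in NC. COL5A1 likewise exceeded its partner COL5A2 by 137 to 235 times with SKP2-2, 92.9 to 107 times with SKP2-1 and 94.4 to 158 times in NC. COL24A1 had 6 to 27 counts per library and was 2.08-fold higher with SKP2-2 than in NC (1.06, SE 0.37, adjusted p = 0.0284). That call was lost by DESeq2 (1.06, adjusted p = 0.0883), and without SKP2-2 replicate 1 (0.85, adjusted p = 0.121), SKP2-2 replicate 2 (1.10, adjusted p = 0.0529), NC replicate 1 (0.92, adjusted p = 0.0693) or NC replicate 3 (0.89, adjusted p = 0.102). COL5A2 had a mean of 1.55 CPM with SKP2-2, 1.9 CPM with SKP2-1 and 1.87 CPM in NC, and COL11A2 0.387, 0.292 and 0.337 CPM, and edgeR called neither. COL5A2 passed as lower with SKP2-2 than in NC at the 1 CPM minimum (-0.30, adjusted p = 0.0484). Without SKP2-1 replicate 1, COL1A2 passed with SKP2-1 against NC (0.67, adjusted p = 0.0334), as did COL24A1 (1.11, adjusted p = 0.034), which also passed without NC replicate 2 (1.24, adjusted p = 0.0398).

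The fibrillar and type IV classes took different shares of the collagen signal. Type IV chains held 28.9%, 28.0% and 25.9% of collagen CPM with SKP2-2, 34.5%, 34.6% and 34.2% with SKP2-1, and 31.5%, 34.4% and 34.1% in NC. Fibrillar chains held 17.9%, 18% and 20% with SKP2-2, 12.6%, 12.7% and 12.9% with SKP2-1, and 18.5%, 15.3% and 15.3% in NC. The SKP2-2 libraries lay below all others for type IV, and the SKP2-1 libraries lay below all others for fibrillar chains. COL5A1 made up 86.5% of the fibrillar CPM with SKP2-2, 84.8% with SKP2-1 and 85.4% in NC, and COL4A1 with COL4A2 made up 96.6%, 91.2% and 93.9% of the type IV CPM. COL5A1 and COL4A2 also vary with library GC content: NC replicate 1 exceeded NC replicate 3 by 1.66-fold and 1.44-fold, and the part of that spread in the shares was not tested. The remaining classes held 53.2% to 54.2% with SKP2-2, 52.8% to 52.9% with SKP2-1 and 50% to 50.7% in NC.

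Fibril-associated chains bind to the surface of fibrils. Of 5 tested, 2 rose and 1 fell with SKP2-2 and 4 rose with SKP2-1. Of all genes tested, 25.2% rose and 24.1% fell with SKP2-2, and 25.0% rose and 20.5% fell with SKP2-1. COL12A1 (ENSG00000111799, chr6:75084326-75206051, minus strand), a fibril-associated chain of tendon and tumour stroma, behaved like COL4A5 in direction. Its level was 209, 215 and 204 CPM with SKP2-2, 351, 356 and 351 CPM with SKP2-1, and 288, 287 and 296 CPM in NC, with no overlap. It fell 1.39-fold with SKP2-2 (-0.47, SE 0.04, adjusted p = 4.96e-07), rose 1.21-fold with SKP2-1 (0.28, SE 0.04, adjusted p = 7.16e-05) and was 1.68-fold lower with SKP2-2 than with SKP2-1 (-0.75, SE 0.04, adjusted p = 6.14e-09). COL16A1, found in skin and cartilage, rose with both siRNAs. It was at 8.75, 11 and 12.3 CPM with SKP2-2, 7.67, 8.51 and 8.35 CPM with SKP2-1, and 6.32, 5.11 and 4.99 CPM in NC, and every siRNA library lay above the NC range. The rise was 1.96-fold with SKP2-2 (0.97, SE 0.13, adjusted p = 3.21e-05) and 1.5-fold with SKP2-1 (0.58, SE 0.13, adjusted p = 0.00222). The difference between the siRNAs (0.39, SE 0.12, adjusted p = 0.0189) no longer passed without SKP2-1 replicate 1 (0.34, adjusted p = 0.0777), SKP2-2 replicate 2 (0.37, adjusted p = 0.0643) or SKP2-2 replicate 3 (0.28, adjusted p = 0.0903), or with GC offsets (0.14, adjusted p = 0.125).

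A pair of scarce fibril-associated chains also passed. COL21A1 had 6 to 47 counts per library and was at 0.345, 0.363 and 0.343 CPM with SKP2-2, 0.849, 1.21 and 0.851 CPM with SKP2-1, and 0.197, 0.133 and 0.169 CPM in NC. It rose 2.11-fold with SKP2-2 (1.08, SE 0.32, adjusted p = 0.014) and 5.77-fold with SKP2-1 (2.53, SE 0.27, adjusted p = 5.98e-06), and was 2.73-fold lower with SKP2-2 than with SKP2-1 (-1.45, SE 0.23, adjusted p = 0.000182). The SKP2-2 call against NC was lost by DESeq2 (1.06, adjusted p = 0.0684) and without NC replicate 2 (0.94, adjusted p = 0.058). COL19A1, with 1 to 17 counts, rose 3.03-fold with SKP2-1 (0.363 ± 0.0519 CPM, against 0.117 ± 0.0353 CPM in NC, SD, n = 3; 1.6 as a log2 value, SE 0.44, adjusted p = 0.00966) and was at 0.0733 ± 0.0672 CPM with SKP2-2. It was 4.61-fold lower with SKP2-2 than with SKP2-1 (-2.20, SE 0.48, adjusted p = 0.0019). Exons of COL19A1 overlap those of LMBRD1 on the opposite strand, a gene with up to 1849 counts, and whether counting used strand is not given in the sources used here, so its few counts may not all be its own. COL9A2, a cartilage chain, was at 4.22, 5.44 and 7.65 CPM with SKP2-2, 2.67, 3.10 and 2.80 CPM with SKP2-1, and 7.17, 3.93 and 2.94 CPM in NC. By edgeR with all 9 libraries its values were 0.33 with SKP2-2 against NC (SE 0.35, adjusted p = 0.492), -0.69 with SKP2-1 against NC (SE 0.37, adjusted p = 0.182) and 1.02 with SKP2-2 against SKP2-1 (SE 0.37, adjusted p = 0.0559). DESeq2 called it lower with SKP2-1 than in NC (-0.73, adjusted p = 0.0236) and higher with SKP2-2 than with SKP2-1 (1.01, adjusted p = 0.00121), as did GC offsets (-0.63, adjusted p = 0.00182, and 0.69, adjusted p = 0.000671). Scaling by library size only (1.05, adjusted p = 0.0486) and the 1 CPM minimum (1.02, adjusted p = 0.0427) also called the second of these. Without NC replicate 1 it passed as higher with SKP2-2 than in NC (0.74, adjusted p = 0.0366) and than with SKP2-1 (1.02, adjusted p = 0.00564). The comparison with SKP2-1 also passed without NC replicate 3 (1.02, adjusted p = 0.0333) or SKP2-2 replicate 1 (1.19, adjusted p = 0.0481).

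The chains of the type VI beaded filament, which assemble as a heterotrimer in the pericellular matrix, did not move together. COL6A3 (ENSG00000163359, chr2:237324003-237414375, minus strand) was at 25.4, 30.7 and 27.1 CPM with SKP2-2, 63.4, 66.4 and 66.5 CPM with SKP2-1, and 53.2, 48.7 and 47.8 CPM in NC. The groups did not overlap. COL6A3 fell 1.80-fold with SKP2-2 (-0.85, SE 0.07, adjusted p = 3.49e-07), rose 1.31-fold with SKP2-1 (0.39, SE 0.07, adjusted p = 0.000331) and was 2.36-fold lower with SKP2-2 than with SKP2-1 (-1.24, SE 0.07, adjusted p = 9.16e-09). COL6A1 was at 75.2, 104 and 136 CPM with SKP2-2, 75.3, 76.4 and 72.9 CPM with SKP2-1, and 98.8, 55.5 and 39.8 CPM in NC, so that NC overlapped both siRNA groups. Its values against NC were 0.70 with SKP2-2 (SE 0.37, adjusted p = 0.164) and 0.22 with SKP2-1 (SE 0.37, adjusted p = 0.677), and without NC replicate 1 the first became 1.13 (adjusted p = 0.0194), as it passed with GC offsets (0.49, adjusted p = 0.0403). COL6A2 was at 8.93, 11.2 and 13.7 CPM with SKP2-2, 9.43, 9.92 and 9.59 CPM with SKP2-1, and 9.87, 7.36 and 5.86 CPM in NC, with edgeR values of 0.56 for SKP2-2 (SE 0.21, adjusted p = 0.0542) and 0.33 for SKP2-1 (SE 0.21, adjusted p = 0.238). The first passed by DESeq2 (0.53, adjusted p = 0.00958), with GC offsets (0.24, adjusted p = 0.00774), by library size only (0.60, adjusted p = 0.0435) and with no filter (0.57, adjusted p = 0.0215), and the second with GC offsets (0.38, adjusted p = 0.000381). Without NC replicate 1 it passed for SKP2-2 (0.76, adjusted p = 0.00476) and for SKP2-1 (0.53, adjusted p = 0.0306), and without SKP2-2 replicate 1 for SKP2-2 (0.66, adjusted p = 0.0427). Per kb, COL6A1 exceeded COL6A3 by 10.9, 12.5 and 18.4 times with SKP2-2, 4.36, 4.23 and 4.02 times with SKP2-1, and 6.82, 4.18 and 3.06 times in NC. The SKP2-2 ratios lay above all others.

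COL8A1, a short-chain network collagen of vessel walls and the cornea, rose with SKP2-1. It was at 173, 179 and 174 CPM with SKP2-2, 200, 207 and 200 CPM with SKP2-1, and 160, 172 and 175 CPM in NC. COL8A1 was 1.20-fold higher with SKP2-1 than in NC (0.26, SE 0.04, adjusted p = 0.00035), lower with SKP2-2 than with SKP2-1 (-0.21, SE 0.04, adjusted p = 0.00164), and overlapped NC with SKP2-2 (0.05, SE 0.04, adjusted p = 0.379; 0.07, adjusted p = 0.0493 with GC offsets). Its partner COL8A2 was at 0.406 ± 0.178 CPM with SKP2-2 and 0.394 ± 0.0461 CPM with SKP2-1, against 0.169 ± 0.0746 CPM in NC (SD, n = 3), from 4 to 28 counts. The rises of 2.46-fold (1.3, SE 0.42, adjusted p = 0.0205) and 2.35-fold (1.23, SE 0.43, adjusted p = 0.0303) were each lost without NC replicate 3 (0.95, adjusted p = 0.0917, and 0.88, adjusted p = 0.122). The first was also lost by DESeq2 (1.26, adjusted p = 0.0595) and without SKP2-2 replicate 3 (0.89, adjusted p = 0.121), and the second without SKP2-1 replicate 1 (1.22, adjusted p = 0.0692), SKP2-1 replicate 2 (adjusted p = 0.0809) or SKP2-2 replicate 1 (1.20, adjusted p = 0.0552).

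COL7A1, the chain of the anchoring fibrils that tie epithelial basement membrane to stroma, was at 298, 407 and 458 CPM with SKP2-2, 241, 247 and 228 CPM with SKP2-1, and 314, 223 and 187 CPM in NC. It was 1.61-fold higher with SKP2-2 than in NC (0.69, SE 0.23, adjusted p = 0.0466), although those groups overlapped, and 1.62-fold higher than with SKP2-1 (0.70, SE 0.23, adjusted p = 0.0428). Both calls stood close to the threshold. The call against NC was lost when any library other than SKP2-2 replicate 1 or NC replicate 1 was left out (values 0.53 to 0.68, adjusted p 0.0735 to 0.136). The call against SKP2-1 was lost without any one SKP2-1 library, without SKP2-2 replicate 2 or 3 and without NC replicate 2 (0.56 to 0.72, adjusted p 0.0647 to 0.127). The call against NC was also lost with RLE scaling (0.66, adjusted p = 0.0519), no filter and the 6 libraries alone. With GC offsets the value against NC was 0.41 (adjusted p = 1.45e-06).

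Of 4 transmembrane collagens 3 were tested, of which 3 rose with SKP2-2 (2 by DESeq2) and 2, COL13A1 and COL17A1, rose with SKP2-1. By edgeR 25.2% of all genes tested rose with SKP2-2 and 25.0% with SKP2-1. COL17A1 (ENSG00000065618, chr10:104031286-104085957, minus strand), the hemidesmosome protein BP180, was at 18.6, 20.7 and 19.5 CPM with SKP2-2, 17.3, 17.9 and 19.5 CPM with SKP2-1, and 11.6, 11.6 and 10.8 CPM in NC. Every siRNA library lay above every NC library. COL17A1 rose 1.73-fold with SKP2-2 (0.79, SE 0.07, adjusted p = 9.07e-07) and 1.61-fold with SKP2-1 (0.69, SE 0.07, adjusted p = 3.9e-06), and the siRNAs did not differ past the threshold (0.10, SE 0.07, adjusted p = 0.239). COL13A1 (ENSG00000197467, chr10:69801867-69964275, plus strand) was at 265, 306 and 327 CPM with SKP2-2, 300, 307 and 301 CPM with SKP2-1, and 247, 218 and 193 CPM in NC. No siRNA library overlapped NC, with rises of 1.37-fold (0.45, SE 0.10, adjusted p = 0.00347) and 1.38-fold (0.47, SE 0.10, adjusted p = 0.00311) in that order. COL25A1, a transmembrane collagen of neurons, had 4 to 32 counts and was 2.43-fold higher with SKP2-2 than in NC (0.435 ± 0.225 CPM, against 0.175 ± 0.0655 CPM, SD, n = 3; 1.28 as a log2 value, SE 0.44, adjusted p = 0.0261) and 2.38-fold higher than with SKP2-1 (1.25, SE 0.43, adjusted p = 0.0283). DESeq2 called neither (1.27, adjusted p = 0.0772, and 1.25, adjusted p = 0.0801), and without SKP2-2 replicate 3 these became 0.77 (adjusted p = 0.173) and 0.74 (adjusted p = 0.186). The call against NC was also lost without NC replicate 1 (1.08, adjusted p = 0.0616) or NC replicate 3 (1.24, adjusted p = 0.0694), and that against SKP2-1 without SKP2-1 replicate 2 (1.07, adjusted p = 0.0941) or SKP2-1 replicate 3 (1.24, adjusted p = 0.0772).

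COL15A1, a proteoglycan collagen of the basement membrane zone, fell with both siRNAs by edgeR. It was at 2.12, 2.54 and 2.66 CPM with SKP2-2, 3.25, 3.2 and 3.51 CPM with SKP2-1, and 4.22, 4.02 and 3.96 CPM in NC. No library of one group overlapped another. COL15A1 fell 1.66-fold with SKP2-2 (-0.73, SE 0.11, adjusted p = 9.24e-05) and 1.22-fold with SKP2-1 (-0.29, SE 0.11, adjusted p = 0.0412), and was 1.36-fold lower with SKP2-2 than with SKP2-1 (-0.44, SE 0.11, adjusted p = 0.00456). DESeq2 did not call the SKP2-1 difference from NC (-0.31, adjusted p = 0.0928), and the 1 collagen it called lower there was COL9A2. The SKP2-1 call against NC was also lost with no filter (-0.28, adjusted p = 0.09), and without any one SKP2-1 or NC library and without SKP2-2 replicate 2 (-0.33 to -0.26, adjusted p 0.0537 to 0.122). COL18A1, the precursor of endostatin, was at 66.1, 96.3 and 147 CPM with SKP2-2, 92.5, 93.4 and 91.2 CPM with SKP2-1, and 161, 78.7 and 58.9 CPM in NC. Its SKP2-2 and NC libraries were each spread over more than the distance between the group means, and it passed in no comparison.

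The spread within NC and within SKP2-2 followed GC content across the collagens, as it did across all genes. Among the 20 collagen genes at 2 CPM or more in a group, the ratio of SKP2-2 replicate 3 to replicate 1 correlated with the GC content of the longest transcript at Pearson r = 0.87 (Spearman rho 0.91). The ratio of NC replicate 1 to replicate 3 did so at r = 0.84 (rho 0.88), and the highest over the lowest SKP2-1 library at 0.23 (rho 0.21). The SKP2-1 ratio takes whichever libraries are highest and lowest for each gene. It therefore has no direction and is not like the other ratios, which are of fixed libraries. These correlations are across genes that share the same libraries, and are given as a description. COL18A1, with 67.2% GC, differed 2.22-fold between those SKP2-2 libraries and 2.73-fold between those NC libraries, and COL6A1, with 63.5%, differed 1.81-fold and 2.48-fold. COL12A1, with 46.3%, had ratios of 0.978 and 0.973, and COL4A5, with 50.9%, had 0.954 and 0.873. The members that fell with SKP2-2 and rose with SKP2-1 (COL4A1, COL4A5, COL12A1 and COL6A3) have a GC content of 46.3% to 55.4% and each passed, in the same direction, in all 3 comparisons under all 19 alternatives run. Across all genes the log2 fold change correlated with GC content at r = 0.18 with SKP2-2 and 0.00 with SKP2-1, against NC.

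**Figure D4:**
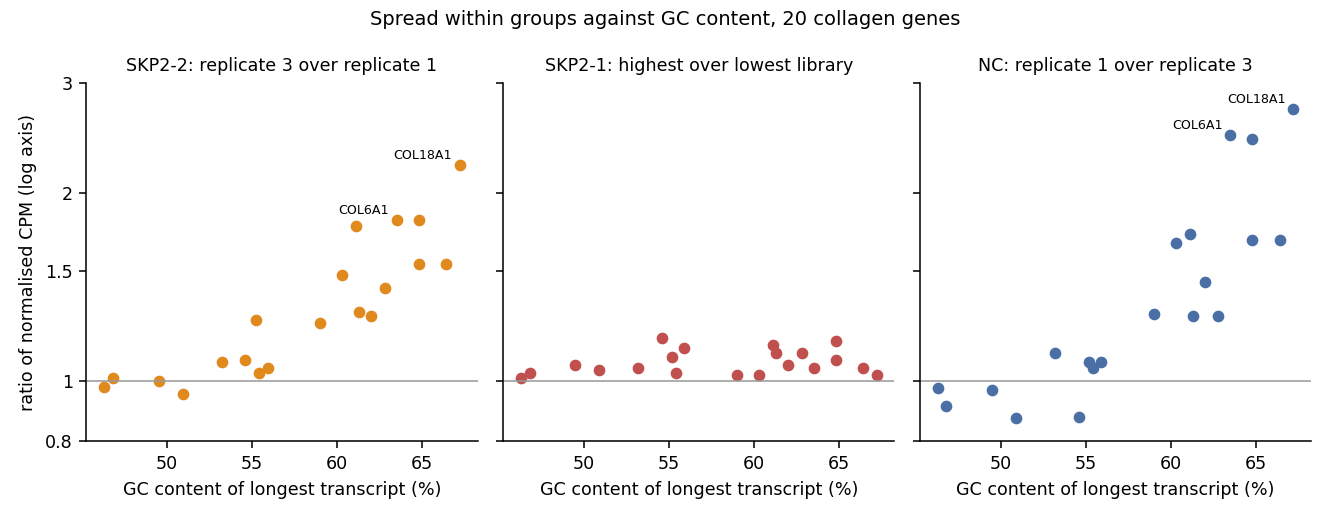
Ratio between libraries of one group on a log axis against the GC content of the longest transcript, for 20 collagen genes with 1 point each. In SKP2-2 and NC the ratio between the libraries named in the panel titles climbs with GC content, up to 2.22 and 2.73 for COL18A1. The SKP2-1 panel shows the highest over the lowest library of each gene, which has no direction and stays within 1.17-fold.

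The 15 collagen genes that were not tested had at most 15 counts in a library, and 11 of them had fewer than 10. COL2A1, COL22A1 and COL23A1 had no count in any of the 9 libraries, which allows at most 0.0602 to 0.0846 CPM, the worth of 3 counts per library, for counting error only. COL11A1 (at most 15 counts), COL3A1 (14), COL28A1 (12) and COL9A3 (10) were the highest of the untested genes. COL3A1, a chain of the fibrils of skin and vessels, had 3, 4 and 4 counts with SKP2-2, 14, 6 and 13 with SKP2-1, and 2, 7 and 3 in NC. With no filter on low counts it passed as higher with SKP2-1 than in NC (1.41, adjusted p = 0.0375) and lower with SKP2-2 than with SKP2-1 (-1.55, adjusted p = 0.0184). It also passed in fits that left out single libraries, where it then met the filter, and no other of these 15 genes passed in any alternative.

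The promoters of 5 members were read for short motifs, as examples of the members called in opposite directions against NC and of those higher with both siRNAs. RefSeq lists windows from 250 bases before to 50 bases after a start site for 32 of the 44 collagen genes, 44 windows in all. A GC box (GGGCGG) stood in 54.5% of the 44 collagen windows and in 45.0% of 35116 windows of all genes, counted on both strands. For a CCAAT box (CCAAT) the shares were 31.8% and 34.6%, for TATAAA 18.2% and 11.5%, for the AP-1 site TGANTCA 2.27% and 7.71%, for the hypoxia response core ACGTG 15.9% and 21.4%, and for the E2F motif GCGGGAA 4.55% and 6.55%. Below are the 250 bases before the start site of COL4A5 (chrX:108439588-108439837, plus strand), COL12A1 (chr6:75206054-75206303, minus strand) and COL6A3 (chr2:237414165-237414414, minus strand), which fell with SKP2-2 and rose with SKP2-1. COL17A1 (chr10:104085881-104086130, minus strand) and COL13A1 (chr10:69801656-69801905, plus strand), which rose with both, follow. Capitals mark any of the 6 motifs on either strand, none of which overlap.
COL4A5: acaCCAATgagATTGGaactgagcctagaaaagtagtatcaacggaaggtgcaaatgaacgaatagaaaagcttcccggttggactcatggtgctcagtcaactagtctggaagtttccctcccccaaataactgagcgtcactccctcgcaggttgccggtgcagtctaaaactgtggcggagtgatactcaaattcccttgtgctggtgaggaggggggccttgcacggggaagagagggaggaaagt
COL12A1: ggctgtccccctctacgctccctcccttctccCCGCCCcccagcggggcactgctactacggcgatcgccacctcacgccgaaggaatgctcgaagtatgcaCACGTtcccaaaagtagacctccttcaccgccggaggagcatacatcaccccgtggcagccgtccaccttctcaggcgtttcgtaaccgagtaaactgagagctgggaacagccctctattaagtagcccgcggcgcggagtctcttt
COL6A3: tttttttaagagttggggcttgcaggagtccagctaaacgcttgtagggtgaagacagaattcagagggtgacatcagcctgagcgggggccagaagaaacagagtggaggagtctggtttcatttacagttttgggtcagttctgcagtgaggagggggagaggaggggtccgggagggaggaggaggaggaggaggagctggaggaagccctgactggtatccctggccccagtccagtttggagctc
COL17A1: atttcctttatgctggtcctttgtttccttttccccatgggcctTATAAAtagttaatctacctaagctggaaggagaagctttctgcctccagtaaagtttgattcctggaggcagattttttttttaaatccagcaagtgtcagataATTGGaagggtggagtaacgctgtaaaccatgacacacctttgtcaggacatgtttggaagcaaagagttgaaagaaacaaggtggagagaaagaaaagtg
COL13A1: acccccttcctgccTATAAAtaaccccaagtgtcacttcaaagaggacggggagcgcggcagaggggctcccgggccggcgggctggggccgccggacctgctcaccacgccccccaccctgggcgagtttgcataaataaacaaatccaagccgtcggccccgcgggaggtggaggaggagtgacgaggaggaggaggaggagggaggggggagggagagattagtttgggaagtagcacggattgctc

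The COL4A5 stretch holds a pair of CCAAT boxes on opposite strands and no TATA box, that of COL12A1 a GC box and a hypoxia core, and that of COL6A3 none of the 6 motifs. COL17A1 and COL13A1 each have a TATA box, and COL17A1 a CCAAT box. The stretches range from 40.4% G and C for COL17A1 to 64.0% for COL13A1. A match is a description of the letters and not a site.

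The genes that modify, fold and export procollagen were read from lists of the pathway. Their counts stand beside the share of all genes tested, of which 25.2% rose and 24.1% fell with SKP2-2 and 25.0% rose and 20.5% fell with SKP2-1, against NC, and nothing is read from a list as particular to it. Of 15 genes for prolyl and lysyl hydroxylation, 8 rose and 3 fell with SKP2-2 (median log2 fold change 0.14), and 8 rose and 2 fell with SKP2-1 (median 0.15). P4HA1, the catalytic subunit of prolyl 4-hydroxylase, rose to 136 ± 6.62 CPM with SKP2-2 and 139 ± 1.02 CPM with SKP2-1, against 92.0 ± 8.98 CPM in NC (SD, n = 3; log2 fold changes 0.57 and 0.59). PLOD2, which hydroxylates telopeptide lysines for cross-linking, rose by 0.30 with SKP2-2 and 0.85 with SKP2-1 on the log2 scale, and P3H2, a prolyl 3-hydroxylase that acts on type IV chains, fell by 0.63 and 0.39. COLGALT1, which adds galactose to hydroxylysine, rose with SKP2-2 (0.30) and fell with SKP2-1 (-0.43). Of 13 genes of folding and export, 4 rose and 5 fell with SKP2-2 (median -0.05), and 8 rose and none fell with SKP2-1 (median 0.16). SERPINH1, the collagen chaperone HSP47, rose by 0.34 with SKP2-2 and 0.19 with SKP2-1. SEC23A, a coat protein of the vesicles that carry procollagen out of the endoplasmic reticulum, fell with SKP2-2 (-0.90, 145 ± 1.32 CPM) and rose with SKP2-1 (0.17, 306 ± 0.908 CPM), against 271 ± 13.7 CPM in NC.

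Outside the cell, where the same shares of all genes tested apply (25.2% higher and 24.1% lower with SKP2-2, 25.0% and 20.5% with SKP2-1), of 12 tested genes of propeptide removal and cross-linking, 3 rose and 2 fell with SKP2-2 (median 0.17) and 7 rose and 1 fell with SKP2-1 (median 0.37). LOX, the lysyl oxidase that cross-links fibrils, rose by 0.59 with SKP2-2 and 1.08 with SKP2-1, and LOXL2, which also acts on type IV collagen, rose by 0.55 and 0.39. ADAMTS14, a propeptidase of type I procollagen, fell with SKP2-2 (-1.63) and rose with SKP2-1 (0.98). Of 9 tested collagen receptors, 2 rose and 3 fell with SKP2-2 (median 0.07) and 5 rose and 1 fell with SKP2-1 (median 0.33). ITGA2, the alpha subunit of the collagen-binding integrin of epithelia, fell to 506 ± 9.14 CPM with SKP2-2 and rose to 1066 ± 15 CPM with SKP2-1, against 619 ± 46.5 CPM in NC (SD, n = 3; log2 fold changes -0.29 and 0.78). Its partner ITGB1 fell with both (-0.82 and -0.34). Of 14 tested proteases and inhibitors, 5 rose and 2 fell with SKP2-2 (median 0.11) and 11 rose and 1 fell with SKP2-1 (median 0.50). MMP14, a membrane-bound collagenase, rose by 0.52 with SKP2-2 and 0.92 with SKP2-1, and TIMP2, an inhibitor that also binds MMP14, rose by 1.00 and 0.40.

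Among the non-collagen partners, set beside the same shares (25.2% of all genes tested higher and 24.1% lower with SKP2-2, 25.0% and 20.5% with SKP2-1), 16 basement membrane genes were tested, of which 3 rose and 4 fell with SKP2-2 (median 0.10) and 9 rose and 1 fell with SKP2-1 (median 0.41). LAMC1, the gamma chain of most laminins, fell to 389 ± 15.1 CPM with SKP2-2 and rose to 865 ± 15.3 CPM with SKP2-1, against 502 ± 30.2 CPM in NC (SD, n = 3; log2 fold changes -0.37 and 0.79), the same directions as COL4A1 and COL4A5. LAMA4, a laminin alpha chain of vessels, rose with both (0.80 and 1.65). Of 10 tested fibril partners, 4 rose and 4 fell with SKP2-2 (median 0.06) and 9 rose and 1 fell with SKP2-1 (median 0.78). Fibronectin FN1, on which collagen fibrils are laid down, fell to 470 ± 5.98 CPM with SKP2-2 and rose to 1253 ± 70.3 CPM with SKP2-1, against 718 ± 20.3 CPM in NC (log2 fold changes -0.61 and 0.80), and fibrillin FBN1 rose with both (0.80 and 1.64). Of 28 tested genes of TGF-beta signalling and of collagen transcription, 6 rose and 12 fell with SKP2-2 (median -0.09), and 9 rose and 4 fell with SKP2-1 (median 0.04). TGFBR1 fell with SKP2-2 (-0.53) and rose with SKP2-1 (0.19), and SMAD3 fell with both (-0.50 and -0.42). Every fold change named for these lists passed an adjusted p of 0.05 by edgeR's quasi-likelihood test with Benjamini-Hochberg adjustment over all genes tested.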

How the data were processed

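Total RNA was purified on RNeasy mini columns with DNase I treatment, per the labels' protocols. What was deposited is 1 file of unnormalised counts for each library, with reads assigned to Ensembl genes by the authors. The tools named, per the submitters' processing notes, are STAR, the counter HTSeq 0.6.1, Trim Galore 0.4.1, FastQC 0.11.2 and DESeq2 1.16.1. Settings, genome build, annotation and strandedness are not given in the sources used here. Summary lines were left out of library totals: reads in no gene were 5.34% to 5.92% of the counted total per library and ambiguous reads 3.87% to 3.97%. Symbols came from the supplied name table (41885) and GENCODE 29 (16390), and 120 identifiers had no match; coordinates, exon lengths and transcript GC content are those of GENCODE 29 on GRCh38.

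Genes were kept by filterByExpr (minimum count 10, minimum total 15; 16575 genes), scaled by TMM (factors 0.973 to 1.02) and fitted with edgeR 4.0.16 in R 4.3.3, with group as the only term and robust quasi-likelihood dispersion over 9 libraries. Quasi-likelihood F tests were two-sided with Benjamini-Hochberg adjustment over all genes tested and a threshold of 0.05. The biological coefficient of variation was 0.0891 and the median SE of a log2 fold change 0.085 to 0.0852. This shared estimate covers groups of unequal spread. Between 2 libraries, chi-square per gene was 8.81 to 26.7 within SKP2-2, 2.48 to 2.55 within SKP2-1 and 7.86 to 50.9 within NC. Levels are normalised CPM, as mean ± SD of 3 libraries. Levels compared between genes were divided by exon length, taken over the merged exons of all annotated transcripts of a gene. DESeq2 1.42.0 served as an alternative. The tests were checked on simulated counts. Those counts had the same dispersion in each group and no spread linked to GC content, so the check does not bear on either.

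The members, classes and gene lists were chosen with earlier results of these data known. All collagen genes past the threshold in a comparison are named, with library values where a group reached 2 CPM; from each list, up to 4 genes moved alike by both siRNAs and 2 moved oppositely could be named. Tested alternatives were 17 chosen at the outset (scaling, filters, DESeq2, replicate number as a block, fits to 6 libraries, libraries left out) and 2 added after the data were seen (GC offsets, and leaving out both NC replicate 3 and SKP2-2 replicate 1). No other columns were present.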

Additional observations from a re-analysis of the deposited data

Results flagged for a closer look

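In 4 of the 29 collagen genes tested, both siRNAs, compared with the same NC libraries, gave calls of opposite sign. In each, the difference between the siRNAs itself passed (edgeR's quasi-likelihood test). Over all genes tested, 25.2% rose and 24.1% fell with SKP2-2, and 25.0% rose and 20.5% fell with SKP2-1. The share of all genes with opposite calls was not counted, so the 4 are not read as particular to collagens. COL4A5 differed by -2.13 on the log2 scale (SKP2-2 minus SKP2-1, adjusted p = 2.76e-11), COL6A3 by -1.24 (adjusted p = 9.16e-09), COL12A1 by -0.75 (adjusted p = 6.14e-09) and COL4A1 by -0.56 (adjusted p = 1.82e-07). In each, all 3 SKP2-2 libraries lay below all 3 NC libraries, and all 3 SKP2-1 libraries lay above them. SKP2 RNA was low with both siRNAs, at 5.96 ± 0.236 CPM with SKP2-2 and 3.58 ± 0.307 CPM with SKP2-1 (SD, n = 3), and the part of that difference in these results was not tested.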

How the results depend on the processing

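Of the calls against NC, 10 of 15 with SKP2-2 and 11 of 13 with SKP2-1 passed in every alternative that gave the gene a p (17 to 19 for each), as did 11 of 15 between the siRNAs. The number of collagen genes lower with SKP2-1 than in NC, 1 (COL15A1), was 0 with no filter, with the replicate block and without both NC replicate 1 and SKP2-2 replicate 3, 3 without both NC replicate 3 and SKP2-2 replicate 1 and with GC offsets, and 0 to 1 with single libraries left out. The number higher with SKP2-2 than in NC, 9, was 5 at a minimum of 1 CPM in 3 libraries (fewer genes tested). It was also 5 without both NC replicate 3 and SKP2-2 replicate 1, 6 by DESeq2 and 12 with GC offsets. With single libraries left out it was 5 (without NC replicate 3) to 11. The number higher with SKP2-2 than with SKP2-1, 4, was 2 with the replicate block and 1 (without SKP2-2 replicate 3) to 6 with single libraries left out. Except where named, the cause was not tested. The highest untested collagen had 15 counts, which limits what depth could show.

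Replicate numbers did not pair the libraries: same-numbered SKP2-2 and NC libraries deviated from their group means with correlations of -0.498, 0.005 and -0.455 over all genes. With the number as a block, collagen calls were 7 higher and 6 lower with SKP2-2, 11 higher and 0 lower with SKP2-1, and 2 higher and 10 lower between the siRNAs.

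The sign turned only in values that had not passed in the main fit of 9 libraries. Some of these passed in an edgeR alternative, with the main sign. Without both NC replicate 1 and SKP2-2 replicate 3, COL27A1 was 0.18 with SKP2-1 against NC (adjusted p = 0.022). With GC offsets COL13A1 was -0.13 between the siRNAs (adjusted p = 0.00407), and COL4A2 passed with SKP2-2 as given above. Values below are for collagens at 2 CPM or more in a group. Those under 2 CPM that also turned were COL4A3, COL5A2, COL8A2, COL11A2, COL24A1 and COL25A1. With SKP2-1 against NC, COL5A1 was -0.36 to 0.02 with single libraries left out, COL4A2 -0.10 to 0.15, COL6A1 -0.04 to 0.64, COL7A1 -0.17 to 0.21 and COL18A1 -0.37 to 0.41. Without both NC replicate 1 and SKP2-2 replicate 3, COL5A1 was 0.02, COL7A1 0.21 and COL18A1 0.41; without both NC replicate 3 and SKP2-2 replicate 1, COL27A1 was -0.05, COL4A2 -0.16 and COL6A1 -0.10. With the 6 libraries alone COL27A1 was -0.00 and COL4A2 -0.05, at the 1 CPM minimum COL4A2 was -0.02, and with GC offsets COL7A1 was 0.03 and COL18A1 0.04. With SKP2-2 against NC, single libraries left out gave COL4A2 -0.19 to 0.06, COL4A4 -0.03 to 0.02 and COL18A1 -0.29 to 0.57. Without both NC replicate 1 and SKP2-2 replicate 3, COL4A2 was 0.00 and COL4A4 0.01; COL4A4 was 0.04 by library size only and 0.00 with no filter and with GC offsets; COL18A1 was -0.05 without both NC replicate 3 and SKP2-2 replicate 1 and -0.23 with GC offsets. Between the siRNAs, single libraries left out gave COL18A1 -0.19 to 0.39 and COL13A1 -0.08 to 0.06. COL18A1 was -0.17 without both NC replicate 1 and SKP2-2 replicate 3 and -0.27 with GC offsets, COL6A2 was -0.14 with GC offsets, and COL13A1 was 0.02 by library size only and 0.06 without both NC replicate 3 and SKP2-2 replicate 1.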
